A study of Mus musculus with 78 samples.

Results

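The early microRNA (miRNA) response of engineered cartilage was examined 4 h after an inflammatory cytokine was added. The tissue was grown from murine induced pluripotent stem cells (iPSCs) that had been turned into chondrocytes, the cells that build and maintain cartilage matrix. It was given interleukin-1 beta (IL-1beta) at 1 ng/mL or tumor necrosis factor alpha (TNF-alpha) at 20 ng/mL, and the reference was control cartilage taken at the same time. The members are the 9 miRNA libraries labelled 4 h, which are 3 of IL-1beta, 3 of TNF-alpha and 3 of control (a, b and c in each), out of 39 miRNA libraries and 78 libraries in the series. All groups are the same murine engineered tissue, and the labels name no donor line, no genetic change and no vehicle. They do not say whether a, b and c were separate cultures, so p-values measure the spread between these samples, which may be technical. Both comparisons use the same 3 controls.

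A miRNA is cut in 2 steps from a hairpin in a longer transcript, first by Drosha with Dgcr8 in the nucleus and then by Dicer1 in the cytoplasm. Either arm of the hairpin (named 5p and 3p) can be loaded into an Argonaute protein, where bases 2 to 8, the seed, pair with target messenger RNAs and lower their output. IL-1beta and TNF-alpha both activate the transcription factor NF-kappaB, which is known to switch on the genes of miR-155 and miR-146a in immune cells, while miR-140 is the miRNA best known for its abundance in cartilage.

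The mature sequences of the miRNAs on which the results turn are shown with the seed in capitals, so that the arms and their relatives can be compared. They come from RefSeq for the mouse build GRCm38.p6, in which 513 of the 588 tested miRNAs and 4 of the 5 called ones were matched by name.
miR-222-3p: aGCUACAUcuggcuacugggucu
miR-221-3p: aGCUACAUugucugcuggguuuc
miR-92a-1-5p: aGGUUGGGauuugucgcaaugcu
miR-92a-3p: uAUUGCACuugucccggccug
miR-155-5p: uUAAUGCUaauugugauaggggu
miR-155-3p: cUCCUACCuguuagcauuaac
miR-341-5p: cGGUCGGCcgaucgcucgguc
miR-341-3p: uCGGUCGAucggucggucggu
miR-222-3p and miR-221-3p share the seed GCUACAU, and their hairpins lie 504 bases apart on the minus strand of chromosome X. The seeds of miR-92a-1-5p, miR-155-5p and miR-341-5p were shared by no other tested miRNA that the table holds. The hairpins of the called miRNAs are printed with each annotated arm in capitals, to show from where each arm is cut. The called miRNA without a match by name was miR-222-5p, so only the 3p arm of Mir222 is in capitals.
Mir222 (chrX:19146893-19146971, minus strand): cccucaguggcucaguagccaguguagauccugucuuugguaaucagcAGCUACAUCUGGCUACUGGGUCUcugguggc
Mir92-1 (chr14:115044427-115044506, plus strand): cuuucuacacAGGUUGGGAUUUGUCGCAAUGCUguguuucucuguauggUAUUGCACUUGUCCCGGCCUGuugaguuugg
Mir155 (chr16:84714140-84714204, plus strand): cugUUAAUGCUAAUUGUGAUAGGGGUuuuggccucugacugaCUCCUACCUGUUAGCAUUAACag
Mir341 (chr12:109611500-109611595, plus strand): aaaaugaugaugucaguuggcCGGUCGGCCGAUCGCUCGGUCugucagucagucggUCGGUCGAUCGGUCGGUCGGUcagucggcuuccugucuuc

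The 9 libraries held 9810823 to 14079804 counts, and their median correlation with the other libraries of their group was 0.994 to 0.995. Levels are given as CPM, the counts of a library scaled to a common library size after TMM normalization. Of all miRNA libraries, TNF-alpha 72 h b and IL-1beta 12 h b correlated least with their groups; they belong to no 4 h group but share in the estimate of the spread. The tissue was checked against its own miRNAs: miR-140-3p, the cartilage miRNA, was at 105500 to 122100 CPM with IL-1beta, at 91720 to 111400 CPM with TNF-alpha and at 98550 to 117500 CPM in controls. Markers of other cell types were far below miR-140-3p, yet not all absent. The summed blood and leukocyte miRNAs ranged over 5.51 to 6.53 CPM with IL-1beta, 7.07 to 8.36 CPM with TNF-alpha and 4.75 to 7.16 CPM in controls. The highest list was that of epithelium, at 24 to 27.5, 24.1 to 26.4 and 27.4 to 29.1 CPM in the same order. Most of it was miR-203-3p (means of 24.2, 24 and 27.5 CPM). The neuron list was at 8.89 to 11, 8.24 to 10.3 and 9.14 to 10.3 CPM. The summed miRNAs of pluripotent cells, from which the tissue was made, were at 0.182 to 0.47 CPM with IL-1beta, 0.144 to 0.633 CPM with TNF-alpha and 0 to 0.332 CPM in controls.

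Few miRNAs had changed at 4 h. IL-1beta raised 4 of the 588 tested miRNAs, namely miR-222-5p, miR-222-3p, miR-92a-1-5p and miR-155-5p, and lowered 1, miR-341-5p, while TNF-alpha raised the same 4 and lowered none. A miRNA counts as called where edgeR's quasi-likelihood test gave an adjusted p under 0.05 over all tested miRNAs, so that 0.68% were called higher and 0.17% lower with IL-1beta, and 0.68% higher and 0% lower with TNF-alpha. At an unadjusted p under 0.05 there were 30 miRNAs with IL-1beta and 34 with TNF-alpha. The 4 raised miRNAs lay above their controls in every library of both cytokines. Of the 588 tested miRNAs, 17 did so, these 4 included, and 12 lay below every control with both. The 4 were called in these same libraries, so their lack of overlap gives no separate support. In bulk tissue, more cells that express a miRNA and more of it per cell cannot be told apart. In the fit that lacked IL-1beta 12 h b and TNF-alpha 72 h b, an alternative chosen after seeing the data, TNF-alpha had 8 miRNAs called higher and 1 lower. In a fit of the 9 libraries alone, TNF-alpha had 8 called higher and IL-1beta none lower.

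**Figure D1:**
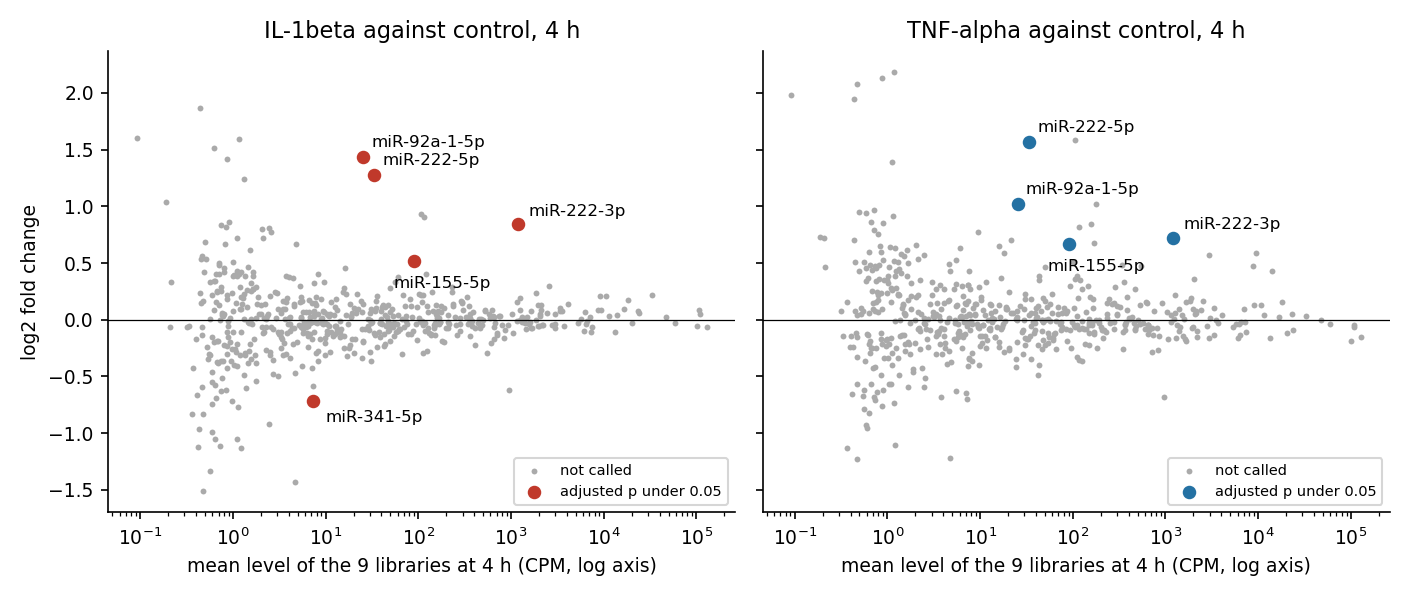
Each point is 1 of the 588 tested miRNAs, with its mean level in the 9 libraries (CPM, log axis) on the horizontal axis and its log2 fold change against control at 4 h on the vertical axis, for IL-1beta (left) and TNF-alpha (right). Large coloured points are called: 4 lie above 0 with each cytokine, and miR-341-5p lies below 0 with IL-1beta, while the uncalled points spread more at low levels.

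Both arms of Mir222 rose with both cytokines. The scarcer arm, miR-222-5p, was at 34.4, 36.5 and 43.4 CPM in the IL-1beta libraries a, b and c and at 47.0, 45.2 and 47.5 CPM in the TNF-alpha libraries, against 15.7, 15.6 and 15.9 CPM in the controls. All 6 cytokine libraries lay above all controls, which agreed closely (15.7 ± 0.181 CPM, SD, n = 3). The rise was 2.42-fold with IL-1beta (log2 fold change 1.27 ± 0.14 SE, edgeR adjusted p = 6.88e-08) and 2.96-fold with TNF-alpha (1.57 ± 0.14, adjusted p = 4.49e-10). The abundant arm, miR-222-3p, known to restrain the cell cycle inhibitor p27, was at 1373, 1499 and 1472 CPM with IL-1beta and at 1378, 1303 and 1310 CPM with TNF-alpha, against 811, 750 and 857 CPM in controls. Again no cytokine library reached down to a control. The rise was 1.80-fold with IL-1beta (0.85 ± 0.12, edgeR adjusted p = 1.25e-05) and 1.65-fold with TNF-alpha (0.72 ± 0.12, adjusted p = 0.00015).

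The neighbouring Mir221 gave another picture for its abundant arm. miR-221-3p, which carries the seed of miR-222-3p, was at 1134, 1129 and 1428 CPM with IL-1beta and at 1118, 1160 and 1114 CPM with TNF-alpha, against 1072, 1137 and 1095 CPM in controls, so that the groups overlapped. It did not pass the test, and its log2 fold change had a 95% interval of −0.08 to 0.40 with IL-1beta and of −0.21 to 0.28 with TNF-alpha. The scarcer arm, miR-221-5p, was at 100.6, 87.6 and 121.1 CPM with IL-1beta and at 108.4, 229.2 and 150.8 CPM with TNF-alpha, against 54.7, 57.4 and 50.3 CPM in controls. These groups did not overlap, yet the spread among all 39 libraries was wide for this arm, and its log2 fold changes of 0.93 ± 0.51 and 1.59 ± 0.52 had edgeR adjusted p-values of 0.994 and 0.222. In the fit that lacked IL-1beta 12 h b and TNF-alpha 72 h b, its value with TNF-alpha was 1.57 and its edgeR adjusted p was 0.000156. TNF-alpha 4 h b, where it was highest, also stood farthest of the 9 libraries towards the side of TNF-alpha 72 h b on the first principal component (0.00919, against 22 for TNF-alpha 72 h b and −4.36 to −1.89 for the others). Without TNF-alpha 4 h b the log2 fold change was 1.26 (adjusted p = 0.608). Summed over both miRNAs, the seed GCUACAU stood at 2507, 2628 and 2900 CPM with IL-1beta and at 2496, 2463 and 2424 CPM with TNF-alpha, against 1883, 1887 and 1952 CPM in controls. The sum was 1.40 times the control mean with IL-1beta and 1.29 times with TNF-alpha. The ratio of miR-222-3p to miR-221-3p was 1.21, 1.33 and 1.03 with IL-1beta and 1.23, 1.12 and 1.18 with TNF-alpha, against 0.757, 0.66 and 0.782 in controls. An exact two-sided permutation test over the samples gave p = 0.1 for each cytokine, the smallest that 3 libraries against 3 allow.

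miR-92a-1-5p, the scarcer arm of the last hairpin of the miR-17-92 cluster, a cluster known to promote proliferation, rose with both cytokines. It was at 37.0, 35.3 and 35.5 CPM with IL-1beta and at 28.4, 22.7 and 29.7 CPM with TNF-alpha, against 15.4, 10.5 and 14.1 CPM in controls. Every cytokine library lay above every control, and every IL-1beta library above every TNF-alpha library. The rise was 2.70-fold with IL-1beta (1.43 ± 0.22, edgeR adjusted p = 3.52e-05) and 2.03-fold with TNF-alpha (1.02 ± 0.21, adjusted p = 0.00625). Without control b, its lowest control, the adjusted p with TNF-alpha was 0.281. The abundant arm, miR-92a-3p, which is also cut from a second hairpin on another chromosome, was at 2150, 2017 and 1973 CPM with IL-1beta and at 2016, 1813 and 2143 CPM with TNF-alpha, against 1742, 1786 and 2068 CPM in controls. Its groups overlapped, and its log2 fold changes of 0.13 ± 0.13 and 0.09 ± 0.13 did not pass the test. None of miR-92b-3p, miR-32-5p and miR-25-3p, which share its seed AUUGCAC, was called.

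miR-155-5p, which in macrophages and lymphocytes is a known driver of inflammatory responses, rose with both cytokines by a smaller factor. It was at 93.7, 91.7 and 104 CPM with IL-1beta and at 111, 105 and 104 CPM with TNF-alpha, against 66.4, 75.9 and 59.4 CPM in controls. All 6 cytokine libraries were above all 3 controls. The rise was 1.44-fold with IL-1beta (0.52 ± 0.11, edgeR adjusted p = 0.00416) and 1.59-fold with TNF-alpha (0.67 ± 0.11, adjusted p = 0.00015). The IL-1beta call ended without control a (adjusted p = 0.0501), without control c (0.0914) and without IL-1beta c (0.079), and also with plain library totals (0.112) and with no low-count filter (0.573), whereas the TNF-alpha call held in all 14 settings tried. The scarcer arm, miR-155-3p, had 15, 18 and 12 counts with IL-1beta and 30, 20 and 27 counts with TNF-alpha, against 3, 4 and 7 counts in controls. Its log2 fold changes of 1.59 ± 0.61 and 2.19 ± 0.58 had edgeR adjusted p-values of 0.612 and 0.0608, and in the fit of the 9 libraries alone the TNF-alpha value had 0.00298.

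miR-341-5p, from the imprinted Dlk1-Dio3 region, in which the maternal chromosome expresses a large group of miRNAs, was the one miRNA called lower. It was at 5.43, 4.86 and 6.72 CPM with IL-1beta and at 7.16, 7.43 and 6.39 CPM with TNF-alpha, against 11.9, 7.33 and 8.71 CPM in controls. The IL-1beta libraries lay below all controls, while the TNF-alpha libraries overlapped them. Its log2 fold change was −0.72 ± 0.18 with IL-1beta (edgeR adjusted p = 0.0477) and −0.41 ± 0.18 with TNF-alpha (adjusted p = 0.691). The IL-1beta call rested close to the threshold: it ended without control a (0.69), control c (0.0764), IL-1beta a (0.168) or IL-1beta b (0.284), and under 4 other settings. The abundant arm, miR-341-3p, was at 462.2, 492.1 and 427.4 CPM with IL-1beta and at 472.1, 427.1 and 450.9 CPM with TNF-alpha, against 457, 406 and 512 CPM in controls, with overlapping groups.

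**Figure D2:**
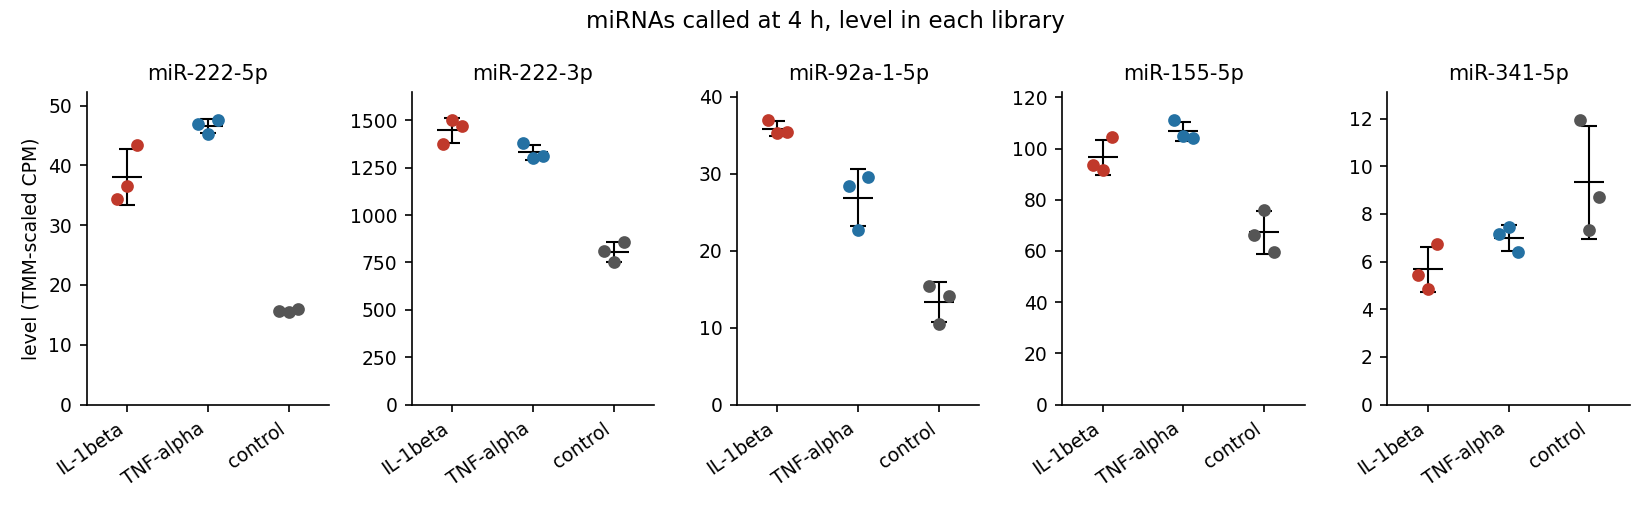
The vertical axes, which start at 0, are TMM-scaled CPM in each of the 9 libraries at 4 h for the 5 called miRNAs, with IL-1beta, TNF-alpha and control from left to right; points are libraries and bars mark the group mean and SD. miR-222-5p is at 34.4 to 47.5 CPM in all cytokine libraries and at 15.6 to 15.9 CPM in the controls.

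The share that the scarcer arm took of its hairpin's counts was also set side by side. miR-222-5p made up 2.44%, 2.38% and 2.86% of both Mir222 arms with IL-1beta and 3.3%, 3.35% and 3.5% with TNF-alpha, against 1.9%, 2.03% and 1.82% in controls. miR-221-5p made up 8.14%, 7.2% and 7.82% of Mir221 with IL-1beta and 8.84%, 16.5% and 11.9% with TNF-alpha, against 4.86%, 4.81% and 4.39% in controls. Thus the 5p arm stood higher relative to the 3p arm in every cytokine library at both X-linked hairpins. miR-92a-1-5p made up 1.69%, 1.72% and 1.77% of its counts and those of miR-92a-3p with IL-1beta and 1.39%, 1.24% and 1.36% with TNF-alpha, against 0.877%, 0.582% and 0.677% in controls. miR-155-3p made up 1.28%, 1.52% and 1.03% of Mir155 with IL-1beta and 1.68%, 1.68% and 1.83% with TNF-alpha, against 0.436%, 0.432% and 0.967% in controls. Each of these 4 shares was higher in all cytokine libraries than in any control, with an exact permutation p of 0.1, the smallest possible. Mir222, Mir92-1 and Mir155 were taken up for an arm called in these same libraries, so their shares give no separate support. Neither arm of Mir221 was called in the fit of all 39 libraries, so its share is given as a description only. Shares were not computed for the hairpins outside those set side by side here, so how many would part likewise is not known. The share of miR-341-5p was lower than in the controls in every IL-1beta library, and with TNF-alpha it overlapped them (exact permutation p = 0.2).

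**Figure D3:**
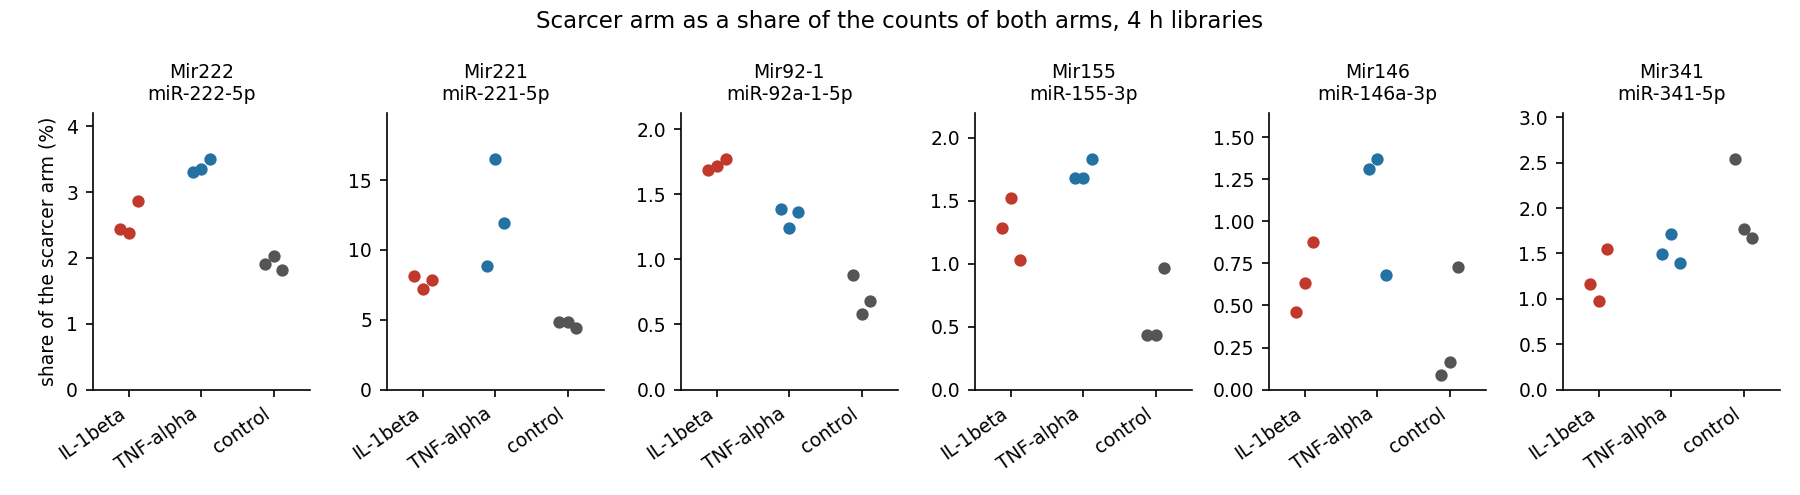
The vertical axes give, in percent, the counts of the scarcer arm among the counts of both arms of 6 hairpins in each of the 9 libraries at 4 h, with IL-1beta, TNF-alpha and control from left to right. The cytokine libraries lie above the controls for Mir222, Mir221, Mir92-1 and Mir155, and overlap them for Mir146.

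The cytokines were then compared with each other. Between IL-1beta and TNF-alpha no miRNA was called (0% of 588); at an unadjusted p under 0.05 there were 21 by edgeR and 20 by DESeq2, which also called 0. For the miRNAs called higher, the log2 difference of IL-1beta minus TNF-alpha was −0.29 for miR-222-5p (95% interval −0.56 to −0.03), 0.12 for miR-222-3p (−0.12 to 0.36), 0.41 for miR-92a-1-5p (−0.01 to 0.84) and −0.14 for miR-155-5p (−0.36 to 0.07). That of miR-341-5p, called lower with IL-1beta alone, was −0.46 to −0.19 with 1 library left out. In the fit that lacked IL-1beta 12 h b and TNF-alpha 72 h b it was −0.30 (edgeR adjusted p = 0.981). Among miRNAs with a mean of at least 10 CPM, the largest differences towards IL-1beta after miR-92a-1-5p were those of miR-181a-1-3p (0.36, adjusted p = 0.361) and miR-34c-3p (0.33). Those towards TNF-alpha were led by miR-409-5p (−0.90), miR-501-3p (−0.80) and miR-3963 (−0.76), and none of them passed the test. These 3 ranged over 111 to 394, 105 to 312 and 358 to 1260 CPM with TNF-alpha. With IL-1beta they ranged over 96 to 229, 90.7 to 196 and 384 to 479 CPM, so that the groups overlapped. With 1 library left out, their differences were −1.45 to −0.50, −1.26 to −0.47 and −1.09 to −0.08.

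The wider lists placed these calls among miRNAs that did not pass. Of 30 inflammation-linked miRNAs, 29 were tested, and 2 were called higher with each cytokine (miR-155-5p and miR-222-3p) and none lower. This list was chosen with earlier results of these data known, so its count is no test of the list. Over all tested miRNAs, 0.68% were called higher with each cytokine and 0.17% lower with IL-1beta. The list's median log2 fold change was 0.08 with IL-1beta and 0.04 with TNF-alpha, beside −0.00937 and −0.00162 over all tested miRNAs. miR-146a-5p, a feedback inhibitor of Traf6 and Irak1 signalling, was between 122.6 and 140.4 CPM with IL-1beta and between 122.5 and 136 CPM with TNF-alpha, against 90.2 to 108.1 CPM in controls. Its groups did not overlap, and with log2 fold changes of 0.40 ± 0.38 and 0.35 ± 0.38 it did not pass the test across the 39 libraries (adjusted p = 0.994 and 0.993). Its scarcer arm, miR-146a-3p, was at 1.65, 1.70 and 0.933 CPM with TNF-alpha, against 0.0969, 0.165 and 0.663 CPM in controls (2.13, edgeR adjusted p = 0.055). miR-146b-3p was at 1.70, 1.96 and 2.36 CPM with IL-1beta, against 0.678, 0.494 and 1.33 CPM in controls (1.25 ± 0.33, adjusted p = 0.0568), and the arm with the seed of miR-146a-5p, miR-146b-5p, had 0.02 and −0.05. miR-147-3p had log2 fold changes of 0.20 and 0.32.

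Of 23 cartilage-linked miRNAs, 21 were tested and none was called with either cytokine, with medians of −0.01 and 0.00. Over all tested miRNAs, 0.68% were called higher with each cytokine and 0.17% lower with IL-1beta, so a list of this size would seldom hold a call. Together they held 390700 to 414200 CPM with IL-1beta, 366000 to 380900 CPM with TNF-alpha and 377800 to 402900 CPM in controls. miR-140-3p had log2 fold changes of 0.09 with IL-1beta and −0.07 with TNF-alpha, and miR-140-5p had −0.02 and −0.06. The member that came nearest to the threshold was miR-335-3p, at 128.8, 126.4 and 167.7 CPM with IL-1beta and at 107.8, 172.3 and 116.7 CPM with TNF-alpha, against 77.5, 86.4 and 61.2 CPM in controls. Its groups did not overlap, and its log2 fold changes of 0.91 ± 0.29 and 0.82 ± 0.29 had edgeR adjusted p-values of 0.221 and 0.288; in the fit of the 9 libraries alone they were 0.0334 and 0.0447. miR-455-3p had −0.62 and −0.68, with overlapping groups.

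Few members of the families were called. Of the 10 tested members of the miR-17-92 cluster, 1 was called with each cytokine, miR-92a-1-5p, and miR-17-5p was at 17.5, 17.3 and 22.2 CPM with IL-1beta, against 15.6, 14 and 11.9 CPM in controls (0.46 ± 0.18, edgeR adjusted p = 0.612). None of the 6 tested members of its paralogous clusters, the 20 of let-7, the 7 of miR-29 and the 11 of miR-30 was called. Over all tested miRNAs, 0.68% were called higher with each cytokine and 0.17% lower with IL-1beta. At such shares a list of this size would seldom hold a call, so the absence of calls does not set these families apart. Within let-7, whose main arms are linked to differentiation, let-7a-2-3p was at 0.81, 0.784 and 0.998 CPM with IL-1beta and at 1.01, 0.716 and 0.862 CPM with TNF-alpha, against 2.23, 1.73 and 1.74 CPM in controls. Its log2 fold changes of −1.13 ± 0.33 and −1.10 ± 0.33 had edgeR adjusted p-values of 0.144 and 0.145.

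Most of the miRNA pool was measured precisely enough to bound its change within 2-fold. Some called changes were smaller than that, such as miR-155-5p at 1.44-fold with IL-1beta and 1.59-fold with TNF-alpha. The 10 most abundant miRNAs, led by miR-127-3p, miR-22-3p, miR-140-3p and miR-148a-3p, held 67.4% to 71% of the counts, and none was called. Their log2 fold changes ran from −0.068 to 0.22 with IL-1beta and from −0.19 to 0.0523 with TNF-alpha. Among the 304 miRNAs with a mean of at least 10 CPM, the 95% interval lay within a 2-fold change either way for 289 (95.1%) with IL-1beta and 282 (92.8%) with TNF-alpha. Over all 588 it did so for 72.3% with IL-1beta and 70.1% with TNF-alpha. In terms of groups that do not overlap, 36 miRNAs (6.12%) were higher than every control in all IL-1beta libraries and 37 (6.29%) in all TNF-alpha libraries, while 31 (5.27%) and 41 (6.97%) were lower than every control.

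Host transcripts in the mRNA libraries of the same groups were read beside the miRNAs. Of 34 listed hosts, 32 were tested; 8 were called higher and 5 lower with IL-1beta, where 32.7% of 18857 genes were called in either direction, and 4 higher and 4 lower with TNF-alpha, where 21.5% were. For the mRNA of TNF-alpha, values against the control at 12 h are given too for the genes named, because 10 genes were at least 4-fold lower in all 8 libraries of IL-1beta 4 h and of the controls at 0 and 4 h than in the other 30 libraries: the cytokine and that difference between libraries cannot be told apart in TNF-alpha against control at 4 h, nor in IL-1beta against TNF-alpha at 4 h. Mir155hg, the host transcript of miR-155, was at 0.516, 0.819 and 0.862 CPM with IL-1beta and at 1.24, 0.664 and 1.36 CPM with TNF-alpha, against 0.292, 0.146 and 0.309 CPM in controls. All cytokine libraries were higher, by 1.52 ± 0.36 on the log2 scale with IL-1beta (edgeR adjusted p = 0.00108) and 2.05 ± 0.37 with TNF-alpha (adjusted p = 8.91e-05), and TNF-alpha against the 12 h control gave 1.94 (adjusted p = 0.000586). Mir17hg, the host of the miR-17-92 cluster, was at 3.67, 3.90 and 4.00 CPM with IL-1beta and at 2.83, 2.80 and 2.48 CPM with TNF-alpha, against 1.86, 2.11 and 1.92 CPM in controls. It rose with IL-1beta (0.98 ± 0.16, edgeR adjusted p = 6.02e-06); with TNF-alpha it had 0.47 ± 0.18 (adjusted p = 0.0523) against the 4 h control and 0.74 (adjusted p = 0.00449) against the 12 h control.

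AA467197, the host of miR-147, was at 4.07, 3.41 and 5.72 CPM with IL-1beta and at 3.59, 2.66 and 4.01 CPM with TNF-alpha, against 1.17, 1.49 and 1.14 CPM in controls. Its transcript rose with both cytokines (1.73 ± 0.21, edgeR adjusted p = 5.17e-08, and 1.44 ± 0.23, adjusted p = 1.68e-05; 1.16 for TNF-alpha against the 12 h control), whereas miR-147-3p did not pass the test. Wwp2, the ubiquitin ligase gene that hosts miR-140, fell to 959, 766 and 845 CPM with IL-1beta and to 995, 964 and 987 CPM with TNF-alpha, against 1320, 1370 and 1270 CPM in controls (−0.63 ± 0.09, edgeR adjusted p = 8.67e-07, and −0.43 ± 0.09, adjusted p = 0.000472; −0.55 for TNF-alpha against the 12 h control). Neither arm of miR-140 passed the test with either cytokine. Dnm3os, which carries miR-199a and miR-214 antisense to Dnm3, fell to 49.1, 36.5 and 55.0 CPM with IL-1beta and to 45.7, 45.1 and 46.1 CPM with TNF-alpha, against 77.4, 66.6 and 73.3 CPM in controls. Its log2 fold changes were −0.65 and −0.67 (edgeR adjusted p = 5.49e-05 and 9.53e-05), with −0.54 for TNF-alpha against the 12 h control. The strand setting of the counting is not given in the sources used here, so reads of Dnm3 may be included. Mir22hg rose by 0.64 ± 0.09 with IL-1beta (edgeR adjusted p = 7.93e-07) and by 0.28 with TNF-alpha (adjusted p = 0.0269; 0.27 and 0.0349 against the 12 h control). The TNF-alpha call of Mir22hg ended without TNF-alpha a (0.0675), TNF-alpha c (0.212), control a (0.078) or control c (0.12). Slit2, an axon guidance ligand gene that hosts miR-218, rose by 0.91 with IL-1beta (adjusted p = 4.41e-06), while with TNF-alpha it had 0.36 against the 4 h control and −0.16 against the 12 h control. It was itself 0.52 higher in the 12 h than in the 4 h controls (edgeR adjusted p = 0.0212). The transcripts of the Dlk1-Dio3 region, Meg3, Rian and Mirg, were not called with either cytokine.

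**Figure D4:**
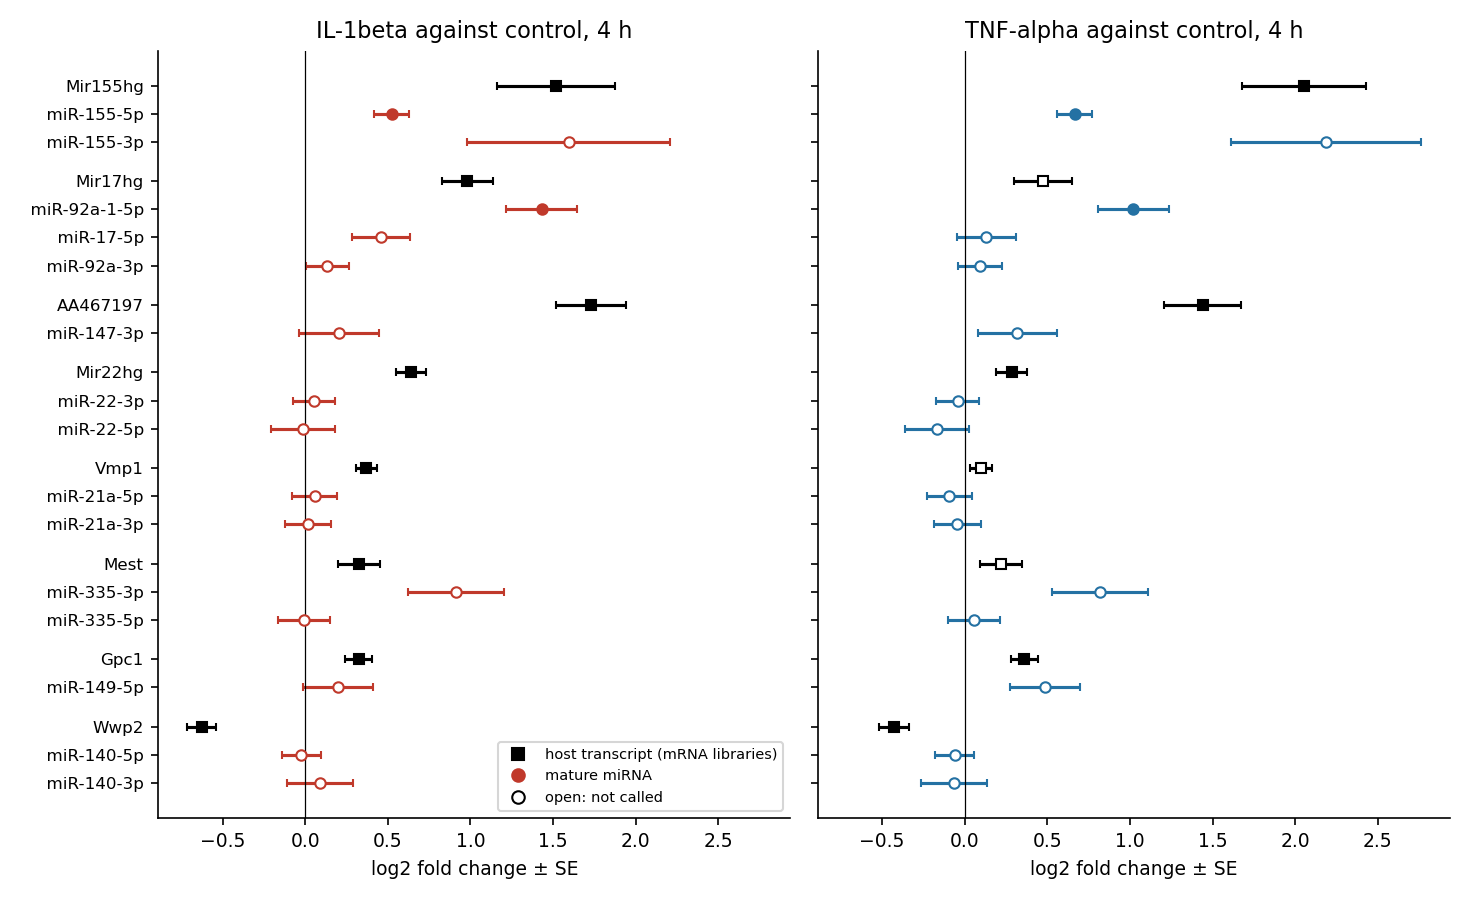
The horizontal axes are log2 fold changes against control at 4 h, with SE bars, of host transcripts in the mRNA libraries (squares) and of the mature miRNAs they carry in the miRNA libraries (circles), IL-1beta left of TNF-alpha; open symbols were not called. Mir155hg and miR-155-5p both lie above 0, at 2.05 and 0.67 with TNF-alpha, whereas Wwp2 lies at −0.63 with IL-1beta and miR-140-3p at 0.09.

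Of 18 textbook targets, all tested, 4 were called higher and 2 lower with IL-1beta and 5 higher and 1 lower with TNF-alpha, beside 32.7% and 21.5% of all genes called in either direction. Among those of miR-155, Socs1, an inhibitor of JAK-STAT signalling, rose by 0.43 with IL-1beta (edgeR adjusted p = 0.0182) and 0.84 with TNF-alpha (adjusted p = 4.16e-05; 0.53 against the 12 h control), and its IL-1beta call ended without IL-1beta b (0.15). Bach1, a repressor of haem oxygenase, rose by 0.69 and 0.29 (0.25 for TNF-alpha against the 12 h control). Cebpb, a transcription factor of the acute phase, rose by 1.74 and 1.15, with 0.57 for TNF-alpha against the 12 h control (adjusted p = 0.00851), and was itself 0.57 higher in the 12 h than in the 4 h controls (adjusted p = 0.0274). Adamts5, an aggrecan-cleaving protease and a target of miR-140, rose by 1.89 and 1.43 (edgeR adjusted p = 5.79e-12 and 1.36e-08). For TNF-alpha against the 12 h control Adamts5 had 2.13 (adjusted p = 1.59e-11), and between the 12 h and the 4 h controls it had −0.69 (adjusted p = 0.0149). Efna3, an ephrin and a target of miR-210, had −0.63 and −0.81 and was called lower with both, with −0.68 for TNF-alpha against the 12 h control. Of the 10 tested genes of miRNA processing, 5 were called higher and 1 lower with IL-1beta, and 2 higher with TNF-alpha, again beside 32.7% and 21.5% of all genes. Zc3h12a, an RNase that degrades inflammatory mRNAs and can cleave miRNA precursors, was at 57.1, 47.6 and 42.5 CPM with IL-1beta and at 15.6, 19.5 and 22.2 CPM with TNF-alpha, against 10.6, 13.4 and 11.4 CPM in controls. It rose by 2.07 ± 0.13 with IL-1beta and by 0.70 ± 0.14 with TNF-alpha (edgeR adjusted p = 6.51e-15 and 0.000282), with 0.53 for TNF-alpha against the 12 h control (adjusted p = 0.00597). The difference of 1.37 between the cytokines passed the test too (adjusted p = 2.43e-09), but it cannot be told apart from the difference between the libraries. The others moved little, and their calls depended on the setting. With IL-1beta, Xpo5, which exports precursors from the nucleus, had 0.23 and was called in 10 of 13 alternatives, Dicer1 had 0.15 and was called in 7, and Ago4 had −0.27 and was called in 6. With TNF-alpha, Ago2 had 0.23 and was called in 8 of 14 alternatives, and it had 0.22 against the 12 h control. Leaving out control a alone ended the calls of Dicer1 (adjusted p = 0.106), Ago4 (0.0615) and Ago2 (0.201).

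The 4 h effects were set beside the later ones. At 12, 24 and 72 h IL-1beta had 16, 23 and 79 miRNAs called and TNF-alpha 9, 25 and 171. The log2 fold change of miR-222-5p with IL-1beta was 1.27, 0.58, 0.81 and 0.56 at 4, 12, 24 and 72 h, and with TNF-alpha it was 1.57, 1.13, 1.41 and 1.49. That of miR-222-3p was 0.85, 0.94, 1.13 and 0.84 with IL-1beta and 0.72, 1.01, 1.46 and 1.78 with TNF-alpha. miR-92a-1-5p stood at 1.43, 0.39, 0.77 and 0.84 with IL-1beta and at 1.02, 1.03, 0.91 and 0.97 with TNF-alpha. With IL-1beta it was not called at 12 h (edgeR adjusted p = 0.445) or 24 h (0.0508), but was at 72 h (0.0089). miR-155-5p stood at 0.52, 0.59, 1.00 and 1.55 with IL-1beta and at 0.67, 0.67, 0.87 and 1.38 with TNF-alpha. miR-341-5p stood at −0.72, −1.01, −2.04 and −2.54 with IL-1beta and at −0.41, −0.17, −1.16 and −1.89 with TNF-alpha. miR-146a-5p, not called at 4 h, stood at 3.03 with IL-1beta and 4.06 with TNF-alpha at 72 h.

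The difference of the effects, 72 h minus 4 h, was tested directly, and 37 miRNAs (6.29%) were called for IL-1beta, 11 higher and 26 lower, and 52 (8.84%) for TNF-alpha, 33 higher and 19 lower. For IL-1beta the effect on miR-222-5p was smaller at 72 h (difference −0.71, edgeR adjusted p = 0.0169), and that on miR-155-5p larger (1.02, adjusted p = 2.45e-05). The call of miR-222-5p held in 11 of 19 alternatives. It ended with library totals (0.113), with no filter (0.32), and without control 4 h b (0.0525), control 4 h c (0.0573), IL-1beta 4 h c (0.117), control 72 h b (0.0739), IL-1beta 72 h a (0.0678) or IL-1beta 72 h b (0.0632). For TNF-alpha the effects on miR-222-3p (1.06, adjusted p = 3.51e-05) and miR-155-5p (0.72, adjusted p = 0.00202) were larger at 72 h. Of 19 alternatives, the call of miR-155-5p ended with library totals (0.137), with no filter (0.193) and with the compared libraries alone (0.0589). The effect on miR-341-5p was further below 0 at 72 h with both (−1.83 and −1.48). The counts for TNF-alpha depend on the libraries used: with 1 library left out they ranged over 17 to 65 higher and 9 to 66 lower. The highest counts, 65 and 66, came without TNF-alpha 72 h a.

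**Figure D5:**
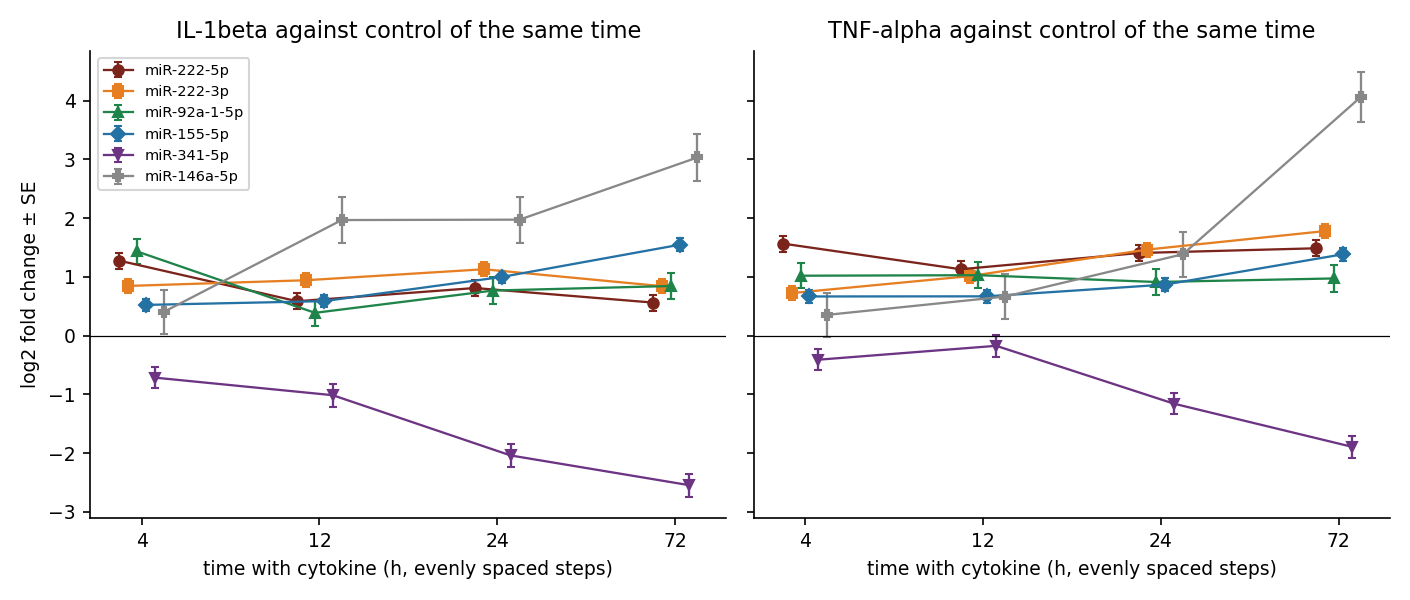
The vertical axes are log2 fold changes against the control of the same time, with SE bars, for the 5 called miRNAs and miR-146a-5p, and the horizontal axes are the times of 4, 12, 24 and 72 h in evenly spaced steps, with IL-1beta on the left and TNF-alpha on the right. With IL-1beta miR-155-5p is at 0.52 at 4 h and 1.55 at 72 h, while miR-222-5p is at 1.27 at 4 h and 0.56 at 72 h.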

How the data were processed

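Small RNA and mRNA of engineered cartilage were sequenced (mirVana and TruSeq small RNA kits, and Ribo-Zero Gold, per the labels' protocols). The deposited values are whole-number counts per miRNA and per gene. Per the submitters' processing notes, the tools were featureCounts, STAR, cutadapt and Trimmomatic and the build was mm10, with no version or setting named there. Counts were analysed as deposited with edgeR 4.0.16 in R 4.3.3: TMM scaling, low-count filter by group (588 of 1916 miRNAs, 99.99% of counts or more), 1 quasi-likelihood fit of all 39 miRNA libraries, and Benjamini-Hochberg adjustment at 0.05. The mRNA fit used 38 libraries (11163263 to 68655350 counts) and 18857 genes; control 0 h b was left out (220180 counts, r = 0.182 and 0.183 with its group), and 2199 lines without a gene name were dropped. SEs were derived from the log2 fold change and F. The common biological coefficient of variation was 19.3%. Libraries of a group differed beyond sampling noise (chi-square per degree of freedom at least 46.57). Exact permutation tests used SciPy 1.17.1. The IL-1beta test at 4 h was also run on counts simulated from the fit's own spread. Such counts hold no libraries that stand apart, so they do not check that case. Named miRNAs were all those called, their other arms, the 6 of largest difference in each direction with a mean of at least 10 CPM for differences between cytokines or times, and list members of lowest p. Alternatives were DESeq2 1.42.0, other scaling factors, no filter, a replicate block, fewer libraries and each library left out. The members and lists were chosen with earlier results of these data known.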

Additional observations from a re-analysis of the deposited data

Results flagged for a closer look

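For these miRNAs the effect of a cytokine at 72 h differed from its effect at 4 h by a test of the difference itself (edgeR). Values are log2 differences, 72 h minus 4 h. TNF-alpha 72 h b stands apart from its group and enters the TNF-alpha values, which are also given without it where that ends a call or moves a value by over 1.5 times. Each value was recomputed under 19 alternatives.

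With IL-1beta, the effect was higher at 72 h for miR-155-5p (1.02, adjusted p = 2.45e-05), miR-145a-5p (1.01), miR-146a-5p (2.63, adjusted p = 0.00155), miR-21a-3p (0.961), miR-93-5p (0.882) and miR-29b-3p (0.704). It was lower for miR-222-5p (−0.713, adjusted p = 0.0169), miR-341-5p (−1.83), miR-341-3p (−0.858), miR-485-3p (−1.67), miR-709 (−1.64), miR-665-3p (−1.57), miR-540-3p (−1.46), miR-370-3p (−1.35) and miR-543-3p (−1.33). Of these, miR-222-5p was called in 11 of the 19 alternatives, miR-341-3p in 12 and miR-29b-3p in 7. The call of miR-341-3p ended without control 4 h a or b, control 72 h c, or IL-1beta 72 h b or c, with adjusted p-values of 0.0596 to 0.1. That of miR-29b-3p ended without any one of 10 libraries, which were all those compared except control 4 h c and control 72 h c. The other 12 were called in all 19.

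With TNF-alpha, the effect was higher at 72 h for miR-222-3p (1.06, adjusted p = 3.51e-05), miR-155-5p (0.718), miR-146a-5p (3.71), miR-146b-5p (2.48), miR-183-5p (2.67), miR-10a-5p (2.17), miR-147-3p (2.12), miR-21a-5p (0.691), miR-21a-3p (1.61), miR-221-3p (0.929) and miR-29b-3p (0.735). It was lower for miR-341-5p (−1.48), miR-341-3p (−0.967), miR-210-5p (−1.8), miR-322-5p (−1.22), miR-665-3p (−1.29), miR-540-3p (−1.14) and miR-140-5p (−0.598). Without TNF-alpha 72 h b, miR-183-5p was at 1.07 (adjusted p = 0.494), miR-10a-5p at 1.23 (0.226), miR-146b-5p at 2.06 (0.0628) and miR-140-5p at −0.478 (0.123), so that none of these was called, and miR-146a-5p was at 2.92 (7.77e-05). Lacking IL-1beta 12 h b as well, miR-183-5p was at 1.07 (0.0868), miR-10a-5p at 1.24 (0.0178) and miR-140-5p at −0.483 (0.0503). Of the 19 alternatives, miR-183-5p and miR-140-5p were called in 7, miR-29b-3p in 12, miR-10a-5p in 13, miR-21a-5p in 15, miR-155-5p in 16, miR-146b-5p in 17, and miR-221-3p and miR-341-3p in 18. Besides TNF-alpha 72 h b, other single libraries ended calls. For miR-183-5p they were control 4 h a and b, TNF-alpha 4 h a, b and c, and control 72 h b and c. For miR-140-5p they were control 4 h a, b and c, TNF-alpha 4 h a and b, control 72 h b and c, and TNF-alpha 72 h c. For miR-10a-5p they were TNF-alpha 4 h a and c and control 72 h b and c, for miR-146b-5p control 72 h b, and for miR-21a-5p control 72 h a. For miR-29b-3p they were control 4 h a, TNF-alpha 4 h c, control 72 h b and TNF-alpha 72 h a.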

How the results depend on the processing

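At 4 h, miR-222-5p and miR-222-3p with both cytokines, miR-92a-1-5p with IL-1beta and miR-155-5p with TNF-alpha were called in all 14 settings, main one included. The counts of calls moved as follows. Library totals gave 0 lower for IL-1beta, 16 lower for the IL-1beta effect at 72 h minus 4 h, and 15 higher and 37 lower for that of TNF-alpha. No low-count filter gave 13 higher and 2 lower for TNF-alpha, 5 lower for IL-1beta against TNF-alpha, and 15 and 33 lower for the IL-1beta and TNF-alpha effects at 72 h minus 4 h. The 4 h libraries alone gave 0 lower for IL-1beta and 8 higher for TNF-alpha. The compared libraries alone gave 20 higher and 43 lower (IL-1beta) and 9 higher and 6 lower (TNF-alpha) for 72 h minus 4 h. Lacking IL-1beta 12 h b and TNF-alpha 72 h b, chosen after seeing the data, there were 8 higher and 1 lower for TNF-alpha, 2 higher for IL-1beta against TNF-alpha and 18 higher for the IL-1beta effect at 72 h minus 4 h. With control 0 h b in the mRNA fit, 10 host, target and processing genes were called for IL-1beta (25 without it) and 6 for TNF-alpha (16 without it). The causes were not tested.

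Leaving out 1 library at a time gave 3 to 4 higher and 0 to 1 lower for IL-1beta, 3 to 5 higher and 0 to 0 lower for TNF-alpha, 0 to 1 higher and 0 to 0 lower between the cytokines, 9 to 12 higher and 15 to 24 lower for the IL-1beta effect at 72 h minus 4 h, 17 to 65 higher and 9 to 66 lower for that of TNF-alpha, and 19 to 25 and 12 to 17 mRNA genes for IL-1beta and TNF-alpha.

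No pairing by the letters a, b and c was seen among the 4 h groups. Same-letter deviations correlated at −0.138 to 0.0864 and other-letter ones at −0.229 to 0.21. With 3 libraries in a group, these values cannot show whether the letters pair samples. With the replicate block, 4 miRNAs were higher and 0 lower for IL-1beta, and 4 higher and 0 lower for TNF-alpha.

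Of 2957 recomputed single values, 86 had the other sign, none with an adjusted p under 0.05 and none over 0.234 in size (log2). By DESeq2 they were miR-341-3p with IL-1beta (−0.001405), miR-222-3p in the IL-1beta effect at 72 h minus 4 h (0.02449) and Dgcr8 with TNF-alpha (0.002707); by median-of-ratios factors the same 3 (−0.001427, 0.02462 and 0.001354). By library totals they were, with IL-1beta, miR-341-3p (−0.01322), miR-21a-3p (−0.004511) and Meg3 (−0.06799), with TNF-alpha, miR-341-3p (0.01301), miR-93-5p (0.003852) and Ago4 (−0.03382), between the cytokines miR-92a-3p (−0.01919) and miR-341-3p (−0.02623), and miR-222-3p in the IL-1beta effect at 72 h minus 4 h (0.0263). With no filter they were that value of miR-222-3p (0.001918) and Ago4 with TNF-alpha (−0.03818); with the 4 h libraries alone, miR-335-5p with IL-1beta (0.00259) and Dgcr8 with TNF-alpha (0.01564); with the compared libraries alone, that value of miR-222-3p (0.0215); lacking the 2 libraries, miR-92a-1-5p in the TNF-alpha effect at 72 h minus 4 h (0.2116); and with the 12 h control, Mest (−0.005379), Slit2 (−0.1613), Dgcr8 (0.05807) and Mirg (−0.08508).

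Leaving out 1 library, the sign turned within these ranges. With IL-1beta: miR-140-5p −0.09822 to 0.009402, miR-145a-5p −0.2048 to 0.01504, miR-146b-5p −0.2339 to 0.1797, miR-21a-3p −0.05831 to 0.09631, miR-22-3p −0.01358 to 0.1059, miR-22-5p −0.07474 to 0.04071, miR-335-5p −0.1117 to 0.08343, miR-341-3p −0.06053 to 0.08256, Meg3 −0.0952 to 0.185 and Mirg −0.2097 to 0.01091. With TNF-alpha: miR-140-3p −0.1437 to 0.01057, miR-140-5p −0.1322 to 0.02111, miR-146b-5p −0.1796 to 0.00482, miR-21a-3p −0.1225 to 0.03947, miR-221-3p −0.005129 to 0.04768, miR-335-5p −0.07474 to 0.1372, miR-341-3p −0.1322 to 0.05826, miR-93-5p −0.07187 to 0.01215, Ago4 −0.0121 to 0.01906, Dgcr8 −0.03711 to 0.03348, Meg3 −0.1168 to 0.01027 and Rian −0.006209 to 0.08186. Between the cytokines: miR-341-3p −0.01564 to 0.0684 and miR-92a-3p −0.03497 to 0.08801. For 72 h minus 4 h: miR-222-3p −0.04018 to 0.08592 and miR-92a-3p −0.07231 to 0.04881 with IL-1beta, and miR-222-5p −0.1654 to 0.04436 and miR-92a-1-5p −0.213 to 0.2138 with TNF-alpha.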

Other observations

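Across the 162 hairpins with both arms tested and paired by name, the scarcer arms had a median log2 fold change of −0.0396 with IL-1beta and −0.0201 with TNF-alpha, and the abundant arms 0.0214 and −0.0188. Of the scarcer arms 1 was called higher with each cytokine, and of the abundant arms 2. miR-92a-1-5p, a scarcer arm called higher with both cytokines, was not among these pairs, because its name does not match that of miR-92a-3p. Scarcer arms lay above every control in all libraries for 9 hairpins with IL-1beta and 10 with TNF-alpha, and below every control for 8 and 13. Over all 588 tested miRNAs, 6.12% and 6.29% lay above every control and 5.27% and 6.97% below, so the counts of scarcer arms are near the share over all miRNAs.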
